A study of Mus musculus with 8 samples.

Results

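The comparison set 4 mouse tumors labelled as lacking CD95 against 4 tumors with CD95, across both kinds of host mice, and asked which transcripts were higher or lower in the knockout tumors of each host alike. All 8 libraries of the study entered it. Each library was 1 of 4 derivatives of 4T1, a mammary carcinoma line of Balb/c origin that serves to model triple-negative breast cancer, grown in the fat pad of 1 of 2 host strains for up to 20 days. The wild-type tumors came from the parental line and from a line carrying vCas9, and the knockout tumors from CRISPR/Cas9 clones 54 and 69. Each host thus had 2 wild-type and 2 knockout libraries, which made 4 groups. NSG mice lack mature T, B and NK cells, whereas Balb/c mice are immunocompetent and match the tumor cells in strain. The labels name no CD95 deletion in the hosts, so host cells of every tumor could supply Fas transcripts. The knockout lines are single clones and no label calls the wild-type lines clonal, so CD95 status and clonal origin cannot be told apart. The libraries held RNA of whole tumors, in which fewer cells of a type and less RNA per cell cannot be told apart.

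CD95, encoded by Fas, is a death receptor that recruits the adaptor Fadd and caspase 8 when it binds its ligand, and the inhibitor Cflar can block that step. The same receptor can also signal without killing, through NF-kB and through kinases that activate AP-1, a dimer of Fos and Jun family proteins. NF-kB and AP-1 are known activators of genes for secreted factors such as interleukin 6, the colony-stimulating factors and the neutrophil attractant Cxcl1. Tumors of 4T1 are known for secreting granulocyte colony-stimulating factor, the product of Csf3, and for the expansion of neutrophils in their hosts.

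The secreted-factor genes Csf3, Csf2, Lif, Il6, Il11 and Cxcl1 were lower in all 4 knockout tumors than in the wild-type tumors of the same host, as were the NF-kB subunit genes Nfkb1, Nfkb2, Relb and Rela. The higher genes were of mixed kinds, among them Aqp5, Iigp1, Cxcr3, Lpl and Tek. No gene of either direction passed the threshold of the main edgeR test over both hosts, whereas DESeq2 called 700 genes and limma-voom with the line as a block 1381. Because the main test called none, all differences below are described as higher or lower and none as a change past the test. Values are CPM, counts scaled to a common library size and corrected for library composition. In each pair of values for a group, the parental line stands before vCas9 and clone 54 before clone 69.

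The promoters of 4 of the lower genes are shown here because motifs for NF-kB or AP-1 occur in them. Each is the window of 250 bases before the RefSeq gene start in GRCm38.p6, on the plus strand, and capitals mark matches on either strand to TGANTCA, an AP-1 motif, or to GGGNNTNNCC, a kappaB motif of NF-kB.
Il6, chr5:30012864-30013113: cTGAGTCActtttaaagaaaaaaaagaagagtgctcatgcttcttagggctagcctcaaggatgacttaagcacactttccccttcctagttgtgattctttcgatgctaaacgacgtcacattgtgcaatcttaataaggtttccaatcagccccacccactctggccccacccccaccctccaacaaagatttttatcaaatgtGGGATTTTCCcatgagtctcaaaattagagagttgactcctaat
Cxcl1, chr5:90890995-90891244: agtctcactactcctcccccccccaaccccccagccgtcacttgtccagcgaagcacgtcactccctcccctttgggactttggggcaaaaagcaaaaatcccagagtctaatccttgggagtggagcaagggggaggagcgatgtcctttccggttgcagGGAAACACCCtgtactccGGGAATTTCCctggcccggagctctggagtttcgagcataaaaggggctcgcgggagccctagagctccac
Lif, chr11:4257318-4257567: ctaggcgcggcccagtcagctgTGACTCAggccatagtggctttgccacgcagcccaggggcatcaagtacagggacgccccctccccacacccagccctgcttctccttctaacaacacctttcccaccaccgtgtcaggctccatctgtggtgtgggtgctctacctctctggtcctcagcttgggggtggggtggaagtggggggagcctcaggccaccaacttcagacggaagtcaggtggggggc
Procr, chr2:155750967-155751216: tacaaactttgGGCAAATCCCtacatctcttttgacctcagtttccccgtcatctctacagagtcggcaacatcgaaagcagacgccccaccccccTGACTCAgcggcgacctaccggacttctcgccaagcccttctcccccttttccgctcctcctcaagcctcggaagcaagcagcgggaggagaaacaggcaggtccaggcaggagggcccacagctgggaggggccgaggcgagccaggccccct
The Il6 window held 1 AP-1 match and 1 kappaB match, the latter starting 44 bases before the gene start. The Cxcl1 window held 2 kappaB matches and no AP-1 match, the Lif window 1 AP-1 match and no kappaB match, and the Procr window 1 of each. The window of Csf2 held neither. These 4 windows were picked for their matches and are no sample of the lower genes. The kappaB motif occurred in 23.3% of the windows of genes lower in both hosts, against 20.3% of the windows of all tested genes and 15.5% of all windows. The AP-1 motif occurred in 4.88% of the windows of the lower genes, in 4.77% of those of all tested genes and in 6.96% of all windows. In the windows of genes higher in both hosts the shares were 19.8% for kappaB and 2.51% for AP-1. Among the lower genes with at least a 2-fold difference in each host, 9 of 75 windows held the AP-1 motif, or 12%, and 14 of 75 held the kappaB motif, or 18.7%, which was below the share of all tested genes. A match is a description of letters and not a measured binding site.

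Library totals ranged from 8.68 M to 19.7 M counts, and the NSG knockout libraries, with 9.10 M and 8.68 M, were the smallest. The locus Mir6236 took between 0.110% and 5.79% of a library, most in NSG clone 54. The tumor cells' epithelial keratins Krt8 and Krt18 were read in every library, from 156 to 1283 CPM and from 145 to 1070 CPM. The labels of the knockout clones and the expression values did not run together across hosts. The difference between clone 54 and clone 69, taken per gene in each host, had a correlation of -0.42 between the hosts over 11440 genes averaging at least 5 CPM, where genes share the same 4 libraries. For the difference between the parental line and vCas9 the correlation was 0.11. Epithelial, neutrophil and erythroid genes were among those with opposite clone differences. The summed level of the 24 epithelial and keratin genes was 4391 CPM for clone 54 and 2986 CPM for clone 69 in NSG, but 907 CPM for clone 54 and 4941 CPM for clone 69 in Balb/c. The wild-type sums ran from 1497 to 2017 CPM in NSG and from 1065 to 2612 CPM in Balb/c. Over genes, the clone difference thus tended to opposite signs in the 2 hosts, with exceptions such as Iigp1, and whether clone labels were exchanged was not tested. The grouping by CD95 status is the same whichever clone is which.

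The targeted gene did not separate the groups in both hosts. Fas was at 33.9 and 22.6 CPM in the NSG wild-type tumors, 29.5 and 12.9 CPM in the NSG knockouts, 51.6 and 46.9 CPM in the Balb/c wild type and 27.1 and 33.7 CPM in the Balb/c knockouts. The groups overlapped in NSG through clone 54 and did not overlap in Balb/c. The additive log2 fold change was -0.56 (SE 0.26, adjusted p 0.309 in edgeR). A small insertion or deletion made by Cas9 need not lower the transcript, so gene-level counts check the knockout only in part. Fasl, the ligand gene, was at 0.414 CPM or less in the NSG tumors, and in Balb/c at 19.4 and 23.6 CPM in wild type and 39.3 and 34.0 CPM in knockout. Its Balb/c groups did not overlap, and its NSG level rested on 5 counts or fewer.

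The count of genes with a common direction was set by a rule on the libraries themselves. A gene was taken as shared when both knockout libraries lay on the same side of both wild-type libraries in each host and on the same side in the 2 hosts. Of 15310 genes tested, 1189 were higher in the knockouts by this rule, or 7.77%, and 1355 were lower, or 8.85%. A further 1093 genes were higher in NSG knockouts and lower in Balb/c knockouts without overlap, and 1401 showed the reverse. Leaving out 1 library or 1 line, which by construction makes separation easier, gave 1407 to 2423 higher and 1681 to 2918 lower genes. Genes with the same direction in both hosts were thus about as many as genes with opposite directions. Across all tested genes the within-host effects had a correlation of 0.08, as a description over genes that are not independent.

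The split between higher and lower shared genes moved with the scaling of the libraries. Of the shared genes 46.7% were higher under TMM scaling, 36.1% under the size factors of DESeq2, with 923 higher and 1633 lower, and 59.9% under total counts, with 1490 higher and 996 lower. Leaving Mir6236 out of the counts gave 40.5%, with 1025 higher and 1505 lower. Of the 1189 higher and 1355 lower genes under TMM, the DESeq2 size factors kept 923 and 1355, and total counts kept 1164 and 980. With a difference of at least 2-fold in each host, 114 genes were higher (0.745% of those tested) and 131 were lower (0.856%). The DESeq2 size factors kept 100 of those 114 and all 131, and total counts kept 114 and 129. Of the 24 genes named for the largest shared differences, the DESeq2 size factors kept 19 and total counts kept 24. Leaving out 1 library or line gave 106 to 479 higher and 119 to 259 lower genes, the extremes being 479 without the line vCas9 and 259 without clone 69. Gpx3, at 1.003 on the log2 scale in the host with the smaller difference, lay just inside that limit, as did Cfap100 on the lower side. Amt on the higher side, at 0.999, and Gm16157 on the lower side, at 0.997 in absolute value, lay just outside.

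In the additive edgeR quasi-likelihood test, 0 of 15310 genes (0%) had an adjusted p under 0.05, and the smallest adjusted p was 0.164. At an unadjusted p under 0.05 there were 1318 higher genes (8.61%) and 1327 lower genes (8.67%), of which 827 and 998 were also shared by the rule above. DESeq2 called 700 genes, 181 higher and 519 lower, and 634 of them were shared by the rule. limma-voom called 0, with 2766 genes at an unadjusted p under 0.05. With the line as a random replicate block, limma-voom called 1381 genes, 546 higher and 835 lower, and 1131 of them were shared by the rule. The block's estimated correlation was -0.42, and a negative correlation makes the standard error of the knockout effect smaller than independent libraries would.

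**Figure D1:**
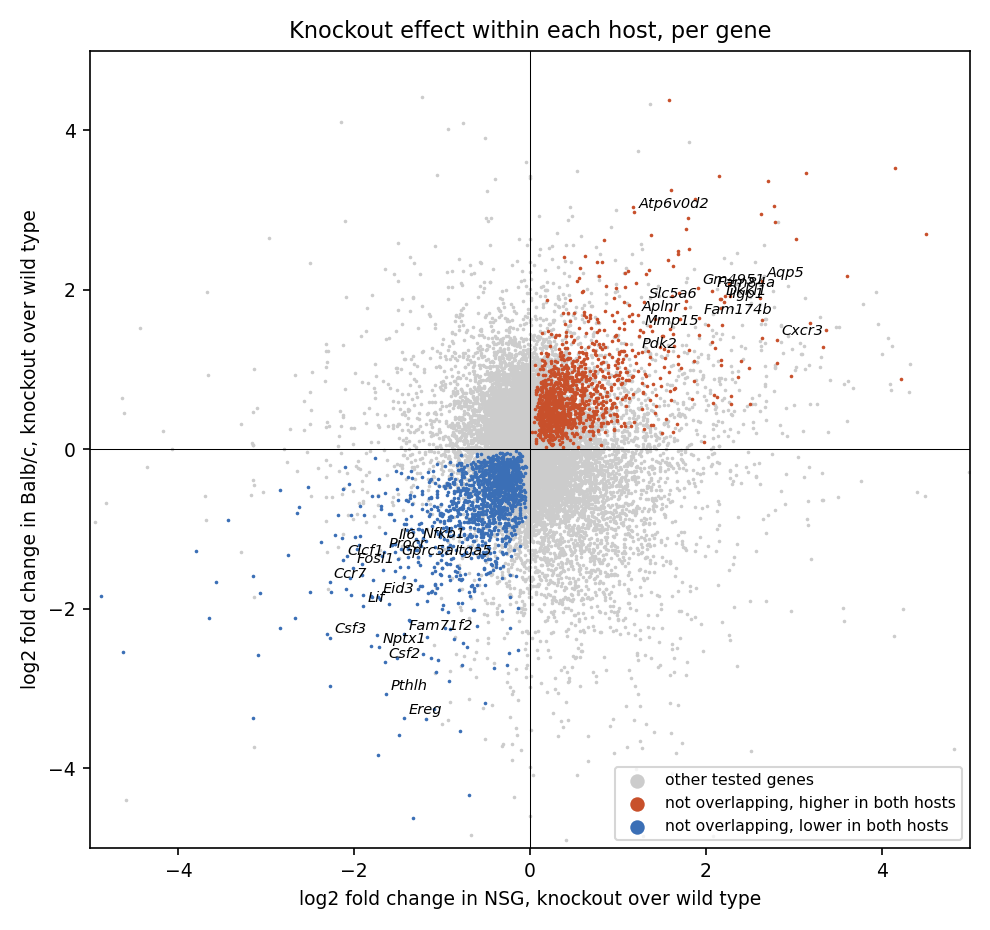
Log2 fold change of knockout over wild type in NSG (x axis) and in Balb/c (y axis), 1 point per tested gene, with 23 genes beyond 5 on either axis not drawn. Coloured points are the 1189 higher and 1355 lower genes whose knockout and wild-type libraries did not overlap in either host. Named genes include Csf3, Csf2, Lif, Ereg and Pthlh at the lower left and Aqp5, Iigp1, Cxcr3 and Atp6v0d2 at the upper right.

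Secreted factors of the interleukin 6 and colony-stimulating families stood among the lower genes with the largest differences in both hosts. Csf3 (ENSMUSG00000038067, chromosome 11, 98701263 to 98703629 in GRCm38) encodes granulocyte colony-stimulating factor, which drives neutrophil production. It was at 177 and 106 CPM in NSG wild type against 42.5 and 15.9 CPM in NSG knockout, whereas the Balb/c values were 32.9 and 30.5 CPM in wild-type against 4.13 and 8.32 CPM in knockout tumors. All 4 knockout tumors lay below both wild-type tumors of their host. The fitted group difference was 4.85-fold in NSG and 5.14-fold in Balb/c, with an additive log2 fold change of -2.32 (SE 0.35, adjusted p 0.164 in edgeR). Csf2, the gene of granulocyte-macrophage colony-stimulating factor, was at 19.8 and 35.3 CPM against 11.4 and 6.07 CPM in NSG and at 17.5 and 14.1 CPM against 2.38 and 2.55 CPM in Balb/c. The groups did not overlap in either host, and the log2 fold change was -2.14 (SE 0.32, adjusted p 0.164 in edgeR).

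Lif encodes leukemia inhibitory factor, a cytokine that signals through the same receptor subunit as interleukin 6. Its level was 350 and 287 CPM against 97.1 and 73.6 CPM in NSG, and 109 and 116 CPM against 9.84 and 48.2 CPM in Balb/c. The 4 knockout values were all below their wild-type pair, and Balb/c clone 54 was the lowest tumor of the 8 (log2 fold change -1.93, SE 0.41, adjusted p 0.194 in edgeR). Il6, with its promoter printed above, was at 224 and 290 CPM against 118 and 58.8 CPM in NSG and at 168 and 120 CPM against 57.0 and 69.9 CPM in Balb/c. No knockout tumor reached the wild-type range of its host, and the log2 fold change was -1.36 (SE 0.24, adjusted p 0.176 in edgeR).

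Il11, a further member of that cytokine family, differed mainly in NSG, where it was at 53.5 and 47.1 CPM in wild type and 3.75 and 3.48 CPM in knockout. In Balb/c it was low throughout, at 1.10 and 3.53 CPM against 1.06 and 0.875 CPM, so that its Balb/c groups were nearly in contact. Clcf1, which encodes another ligand of the family, was at 86.4 and 46.3 CPM against 17.4 and 12.9 CPM in NSG and at 31.0 and 42.7 CPM against 9.998 and 18.4 CPM in Balb/c. Its groups did not overlap in either host, and the log2 fold change was -1.75 (SE 0.30, adjusted p 0.176 in edgeR).

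Of the 15 inflammatory cytokine genes of the list, all tested, 7 were lower without overlap in both hosts and 0 were higher, against 8.85% and 7.77% of all tested genes. Without the libraries of clone 54 the count was 11. In that setting 15713 genes were tested and 2918 were lower without overlap in both hosts. The 7 genes with all libraries were Csf2, Csf3, Lif, Il6, Il11, Csf1 and Ptgs2. The median log2 fold change of the list was -0.67 over both hosts, beside 0.04 for all tested genes. The list was chosen with earlier results of these data known, so its share is a description only. Ptgs2, the inducible cyclooxygenase that makes prostaglandin precursors, was at 2401 and 1852 CPM against 1044 and 743 CPM in NSG and at 1285 and 1457 CPM against 375 and 818 CPM in Balb/c. Other members did not follow. Tnf had a log2 fold change of -0.01 and Il33 of 0.19, and Il1b was higher in NSG by 0.37 and lower in Balb/c by -1.26 on the log2 scale.

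**Figure D2:**
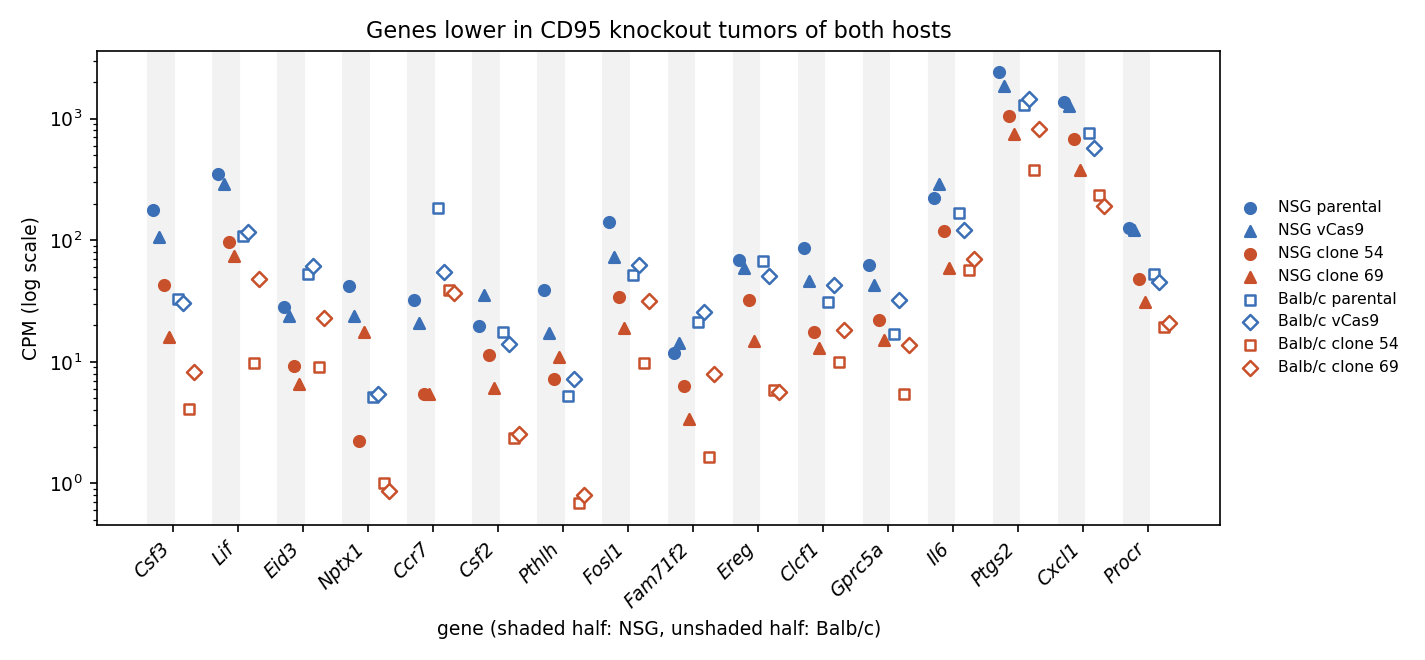
CPM on a log axis for 16 genes lower in the knockout tumors of both hosts, 8 points per gene, 1 for each library. Filled symbols on the shaded side are NSG tumors, open symbols are Balb/c tumors, blue is wild type and red is knockout. In every gene shown the red symbols lie below the blue symbols of the same host.

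The chemokine Cxcl1, a neutrophil attractant, was at 1378 and 1261 CPM against 685 and 379 CPM in NSG and at 759 and 573 CPM against 236 and 192 CPM in Balb/c. The groups were apart in each host, with a log2 fold change of -1.47 (SE 0.23, adjusted p 0.169 in edgeR). Of 22 chemokine ligands tested, 2 were lower in both hosts, Cxcl1 and Ccl3, which is near the 8.85% of all tested genes, and 0 were higher. Ccl3 had little margin in one host, at 650 and 571 CPM against 155 and 540 CPM in Balb/c. Neutrophil markers did not run with Csf3 and Cxcl1 in both hosts. The summed level of the 14 neutrophil genes tested was 1731 to 2185 CPM in NSG wild type and 1859 to 3911 CPM in NSG knockout, but 7037 to 8666 CPM in Balb/c wild type and 660 to 3061 CPM in Balb/c knockout. In NSG the cytokine genes were thus lower in tumors whose neutrophil sum was not. Of the 14 neutrophil genes, Mmp8 and Mpo were lower in both hosts and 0 were higher, beside 8.85% and 7.77% of all tested genes. Mpo was under 1 CPM in all NSG tumors. Of the 14 genes, 10 had a log2 fold change above 0 in NSG and 0 in Balb/c.

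The genes for NF-kB itself were lower together. Nfkb1 encodes the p105 precursor of an NF-kB subunit. It was at 525 and 441 CPM against 226 and 173 CPM in NSG and at 753 and 872 CPM against 288 and 437 CPM in Balb/c. The knockout tumors were below both wild-type tumors in each host, with a log2 fold change of -1.22 (SE 0.19, adjusted p 0.169 in edgeR). Nfkb2, which shares its locus with Psd and encodes the subunit of the alternative pathway, had 211 and 169 CPM against 107 and 86.4 CPM in NSG and 227 and 253 CPM against 146 and 199 CPM in Balb/c. Relb, the partner of that subunit, had a log2 fold change of -0.68 (SE 0.19, adjusted p 0.205 in edgeR), and Rela, the main activating subunit, of -0.65 (SE 0.19, adjusted p 0.205 in edgeR).

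Of the 15 NF-kB genes and targets tested, 6 were lower in both hosts and 0 were higher, against 8.85% and 7.77% of all tested genes, with a median log2 fold change of -0.53. Without the libraries of clone 54 the count was 12, in a setting where 15713 genes were tested and 2918 were lower in both hosts. This list too was chosen with earlier results of these data known, so its share is a description only. The remaining members of the 6 were Traf1, an adaptor of TNF receptors, and Ier3, an early response gene. The classical feedback genes did not belong to them. Nfkbia, the inhibitor that NF-kB induces, was at 642 and 635 CPM against 829 and 512 CPM in NSG and at 1005 and 994 CPM against 647 and 1016 CPM in Balb/c, with overlap in both hosts. Tnfaip3, another feedback inhibitor, had a log2 fold change of -0.19 (SE 0.24), and Icam1, an adhesion molecule, of -0.17 (SE 0.28). Malt1, the protease that relays antigen receptor signals to NF-kB, was not on the list and was named by its small p-value. It was at 293 and 283 CPM against 132 and 107 CPM in NSG and at 608 and 608 CPM against 264 and 342 CPM in Balb/c. Its groups were far apart in both hosts, with a log2 fold change of -1.14 (SE 0.16, adjusted p 0.164 in edgeR).

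Fosl1, which encodes the AP-1 subunit Fra-1 and overlaps Ccdc85b, was at 141 and 72.6 CPM against 33.8 and 19.1 CPM in NSG and at 51.7 and 62.4 CPM against 9.73 and 31.4 CPM in Balb/c. No knockout tumor overlapped the wild type of its host (log2 fold change -1.75, SE 0.39, adjusted p 0.194 in edgeR). Ereg, the gene of the EGF receptor ligand epiregulin, was at 68.6 and 58.7 CPM against 32.5 and 14.7 CPM in NSG and at 68.0 and 51.1 CPM against 5.82 and 5.69 CPM in Balb/c. Its wild-type ranges overlapped between the hosts, its knockout values were lower in Balb/c than in NSG, and the difference between the hosts had an edgeR adjusted p of 0.105. Of 13 EGF family genes tested, 2 were lower in both hosts, Ereg and Nrg1, and 0 were higher, beside 8.85% and 7.77% of all tested genes. Pthlh, the gene of parathyroid hormone-related protein, was at 39.2 and 17.2 CPM against 7.17 and 10.9 CPM in NSG and at 5.27 and 7.28 CPM against 0.688 and 0.802 CPM in Balb/c.

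The gene with the smallest p-value was Procr (ENSMUSG00000027611), which encodes the endothelial protein C receptor and is used as a marker of mammary stem cells. It was at 127 and 122 CPM against 47.8 and 31.1 CPM in NSG and at 53.0 and 45.1 CPM against 19.4 and 20.7 CPM in Balb/c. The wild-type pairs were close together, the knockout pairs were close together, and the gap between them was wider than either spread in both hosts. The log2 fold change was -1.48 (SE 0.17), with an unadjusted p of 1.61e-05 and an edgeR adjusted p of 0.164. Itga5, a subunit of the fibronectin receptor whose locus includes Mir6963, was as even, at 290 and 327 CPM against 155 and 175 CPM in NSG and at 272 and 270 CPM against 101 and 108 CPM in Balb/c. Its groups did not overlap, and the log2 fold change was -1.14 (SE 0.15, adjusted p 0.164 in edgeR).

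Of 13 stemness genes tested, 4 were lower in both hosts and 0 were higher, beside 8.85% and 7.77% of all tested genes. They were Procr, the adhesion receptor Cd44, the transcription factor Sox4 and the oncogene Myc. Myc was at 97.4 and 118 CPM against 95.8 and 60.6 CPM in NSG and at 102 and 82.3 CPM against 43.9 and 40.04 CPM in Balb/c. The NSG groups were separated by 97.4 and 95.8 CPM alone, so its place on the list rested on a small gap. Of 15 MYC and ribosome biogenesis genes, Myc and Nop58 were lower in both hosts, and of 20 proliferation genes 0 were lower and 0 were higher. Mki67, the proliferation marker, was at 351 and 341 CPM against 288 and 472 CPM in NSG and at 208 and 216 CPM against 177 and 134 CPM in Balb/c.

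Of the other named lower genes, Ube2ql1, which encodes a ubiquitin-conjugating enzyme, was at 11.4 and 3.40 CPM against 0.428 and 0.398 CPM in NSG and at 1.27 and 1.59 CPM in the wild-type tumors of Balb/c. It had 0 counts in both Balb/c knockouts, which is at least 7.60-fold lower when each of those libraries is set to a floor of 3 counts. Nptx1, a neuronal pentraxin gene, was at 42.1 and 24.02 CPM against 2.25 and 17.7 CPM in NSG and at 5.18 and 5.47 CPM against 1.01 and 0.875 CPM in Balb/c. Eid3, an inhibitor of p300-type coactivators that lies within Txnrd1 on the same strand, had a log2 fold change of -1.79 (SE 0.28, adjusted p 0.169 in edgeR). Ccr7, the homing receptor of dendritic cells and T cells, was at 31.99 and 21.04 CPM against 5.46 and 5.47 CPM in NSG and at 184 and 54.5 CPM against 38.7 and 36.5 CPM in Balb/c. The list also held Gprc5a, an orphan receptor gene, and Fam71f2, with log2 fold changes of -1.44 (SE 0.33) and -1.88 (SE 0.46).

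Among the 18 genes of the CD95 pathway, 2 were lower in both hosts, Cflar and Ripk1, and 1 was higher, Bid, counts near the 8.85% and 7.77% of all tested genes. Cflar, whose product blocks caspase 8 at death receptors and which NF-kB is known to induce, was at 314 and 269 CPM against 215 and 167 CPM in NSG and at 466 and 467 CPM against 235 and 293 CPM in Balb/c. The groups were apart in both hosts, with a log2 fold change of -0.72 (SE 0.16, adjusted p 0.194 in edgeR). Ripk1, a kinase of death receptor complexes that overlaps Serpinb6a, had a log2 fold change of -0.29 (SE 0.12). Bid, which carries the death signal to mitochondria and overlaps Bcl2l13, had one of 0.40 (SE 0.19), with its Balb/c groups separated only by 12.4 and 13.1 CPM. Casp8 itself had a log2 fold change of -0.05 (SE 0.11). Of 10 other death receptor genes, the TRAIL gene Tnfsf10 and the adaptor gene Tradd were higher in both hosts and the TRAIL receptor gene Tnfrsf10b was lower.

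The counts for the matrix, hypoxia and metabolic lists stand beside 8.85% of all tested genes lower and 7.77% higher. Of the 15 matrix protease genes and inhibitors tested, 3 were lower in both hosts, among them Mmp10 and the urokinase receptor gene Plaur. Mmp9 was higher, at 236 and 543 CPM against 805 and 1394 CPM in NSG. Its Balb/c gap was narrow, at 294 and 339 CPM against 358 and 373 CPM. Of 14 mesenchymal transition regulators, Tgfb1, Zeb2 and Snai1 were lower and Fn1, the fibronectin gene, was higher. Zeb2 and Fn1 have overlapping loci, Zeb2os and Apol7d. The Balb/c groups of Fn1 were separated only by 4186 and 4299 CPM.

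Of 20 hypoxia and glycolysis genes, 5 were lower in both hosts, namely Pfkp, Hk2, Car9, Ndrg1 and Ero1l, and Ankrd37 was higher. Ankrd37 was separated only by 5.82 and 5.87 CPM in NSG and by 5.78 and 5.84 CPM in Balb/c, and without clone 54 its log2 fold change was -0.00251. Car9, the gene of a surface carbonic anhydrase induced in hypoxia, was at 76.7 and 71.9 CPM against 49.2 and 28.1 CPM in NSG and at 11.04 and 16.6 CPM against 6.08 and 4.08 CPM in Balb/c. The log2 fold change was -1.18 (SE 0.24, adjusted p 0.194 in edgeR). Of the 20 genes, 3 had a log2 fold change above 0 in NSG and 9 in Balb/c. Pgk1, a glycolytic enzyme gene, was at -0.75 in NSG and 0.47 in Balb/c on the log2 scale. Of 16 polyamine genes, Odc1, Smox and Azin1 were lower and Amd1 was higher. Of the 16 genes, 3 had a log2 fold change above 0 in NSG (median -0.34) and 11 in Balb/c (median 0.18). Odc1, the first enzyme of polyamine synthesis, was at 844 and 694 CPM against 190 and 167 CPM in NSG but at 202 and 206 CPM against 176 and 174 CPM in Balb/c. The gap was thus wide in NSG and narrow in Balb/c, and the difference between hosts had an edgeR adjusted p of 0.0734.

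**Figure D3:**
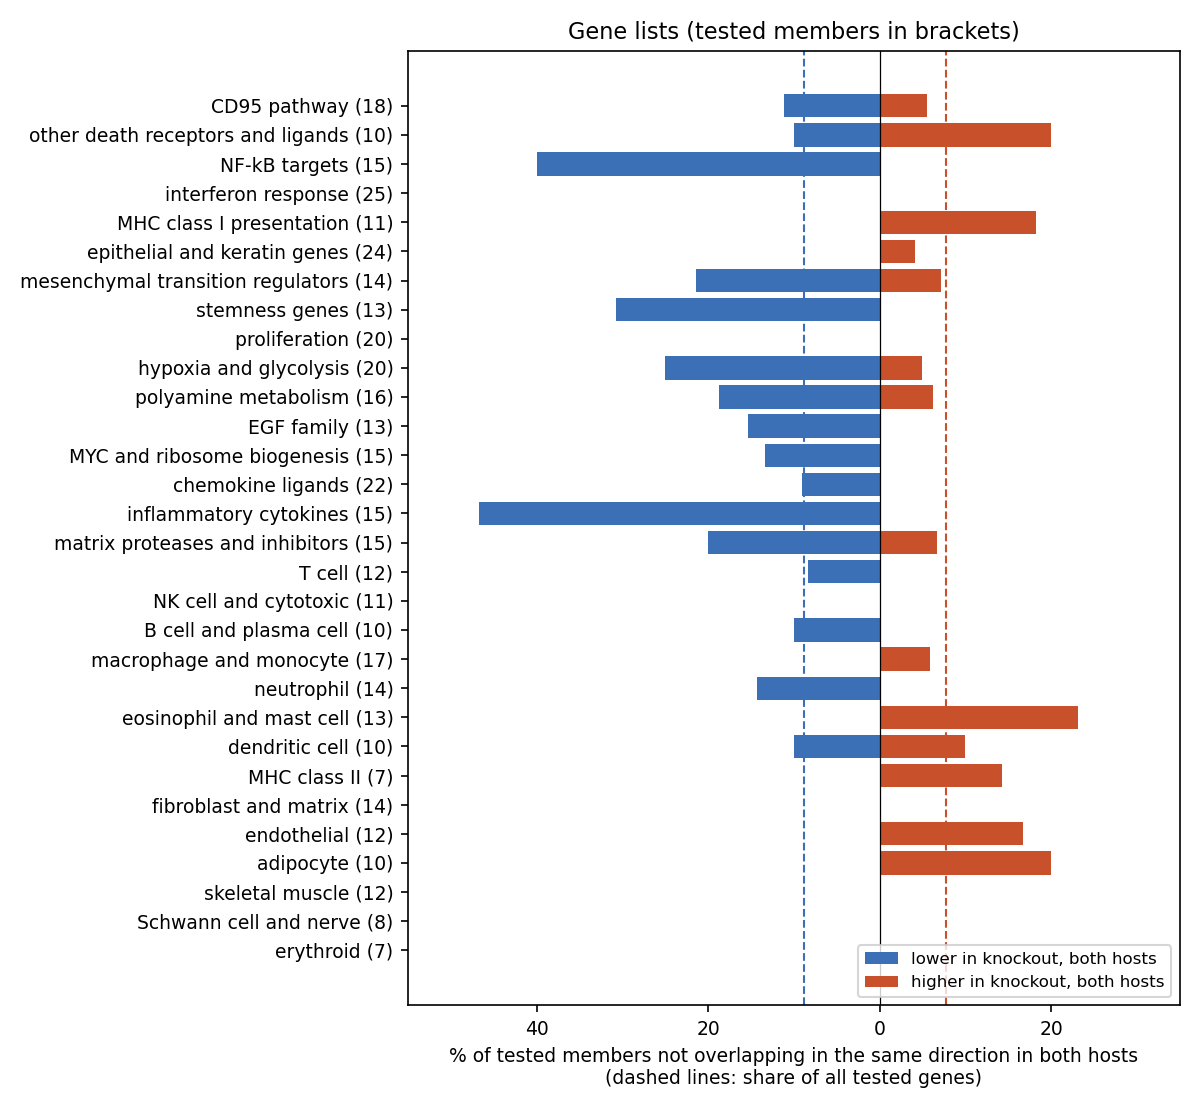
Percent of the tested members of each of 30 gene lists that were lower (blue, to the left) or higher (red, to the right) without overlap in the knockout tumors of both hosts. Dashed lines mark the shares of all tested genes, 8.85% lower and 7.77% higher. Inflammatory cytokines, with 7 of 15, and the list labelled NF-kB targets, with 6 of 15, have the longest bars to the left. Among those 6 are the NF-kB subunit genes Nfkb1, Nfkb2, Relb and Rela. The lists were chosen with earlier results of these data known.

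The genes higher in the knockout tumors of both hosts differed in whether they ran with the epithelial genes. Aqp5, an epithelial water channel, was at 1.66 and 3.48 CPM against 22.8 and 9.05 CPM in NSG and at 3.14 and 12.1 CPM against 12.1 and 54.6 CPM in Balb/c. It was high in NSG clone 54 and Balb/c clone 69, the 2 tumors with the highest epithelial sums, and its Balb/c groups touched. The log2 fold change was 2.36 (SE 0.61, adjusted p 0.201 in edgeR), and from 1.79 to 3.33 with a library or line left out. Dkkl1, Fam174b and Slc5a6, the last a vitamin transporter that overlaps Atraid, were likewise highest in NSG clone 54 and Balb/c clone 69 within each host. Slc5a6, for example, was at 7.41 and 8.95 CPM against 29.4 and 10.8 CPM in NSG and at 7.05 and 11.2 CPM against 11.6 and 54.2 CPM in Balb/c. Under the DESeq2 size factors, Aqp5, Dkkl1, Fam174b, Slc5a6 and Mmp15 overlapped in Balb/c, where vCas9 then exceeded clone 54, and were no longer shared. The part of epithelial content in these differences was not tested. Of the 24 epithelial genes, Cdh1, the gene of E-cadherin, was the 1 that was higher in both hosts, a share below the 7.77% of all tested genes. The median log2 fold change of the 24 genes was 0.81 over both hosts, 1.36 in NSG and 0.40 in Balb/c, with 23 members above 0 in NSG and 19 in Balb/c.

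Iigp1, an interferon-inducible GTPase gene, did not follow that order. It was at 13.4 and 13.3 CPM against 94.7 and 28.9 CPM in NSG and at 50.7 and 86.2 CPM against 339 and 156 CPM in Balb/c. Clone 54 was highest in both hosts, and the log2 fold change was 2.02 (SE 0.40, adjusted p 0.185 in edgeR). With a library or line left out, that log2 fold change ran from 1.09 to 2.57. Gm4951, a related gene on the same chromosome, had a log2 fold change of 1.97 (SE 0.38), and reads of the 2 similar copies may be split between them. Interferon response genes did not share this direction in both hosts. Of 25 tested, 0 were higher and 0 were lower in both hosts, beside 7.77% and 8.85% of all tested genes. Their log2 fold change was above 0 for 17 in NSG (median 0.28) and for 7 in Balb/c (median -0.23). Tlr3, a sensor of double-stranded RNA, was more even across lines, at 17.9 and 18.2 CPM against 37.99 and 33.5 CPM in NSG and at 9.60 and 8.66 CPM against 21.5 and 15.5 CPM in Balb/c (log2 fold change 1.002, SE 0.15, adjusted p 0.164 in edgeR). Of 11 genes of MHC class I presentation, Tap2 and Tapbp, the latter next to Zbtb22 in an overlapping locus, were higher in both hosts and 0 were lower, to be read against the same shares. Of the 11 genes, 4 had a log2 fold change above 0 in NSG (median -0.04) and 10 in Balb/c (median 0.63).

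Cxcr3, the receptor of interferon-induced chemokines on T and NK cells, was at 0.970 and 1.66 CPM against 9.84 and 8.55 CPM in NSG and at 3.82 and 5.27 CPM against 13.6 and 10.1 CPM in Balb/c. The groups were separate in both hosts, with a log2 fold change of 2.03 (SE 0.35, adjusted p 0.176 in edgeR). The summed level of the 12 T cell genes tested did not go along with it. That sum was 11.8 to 12.7 CPM in NSG wild type and 6.31 to 9.05 CPM in NSG knockout, and 532 to 787 CPM and 562 to 581 CPM in Balb/c. Of the 12 genes, 1 was lower and 0 were higher in both hosts, beside 8.85% and 7.77% of all tested genes. It was the T cell receptor gene Cd3e, at 1.80 and 2.90 CPM against 0.107 and 0.298 CPM in NSG. Those NSG knockout values rested on 3 counts or fewer. In Balb/c Cd3e was at 66.0 and 51.4 CPM against 26.03 and 37.5 CPM. Of the 12 genes, 3 had a log2 fold change above 0 in NSG and 9 in Balb/c. The NK cell receptor gene Ncr1 had 0 CPM in all 4 NSG tumors and was at 3.65 and 5.34 CPM against 13.6 and 8.68 CPM in Balb/c, where the knockout tumors were higher without overlap.

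**Figure D4:**
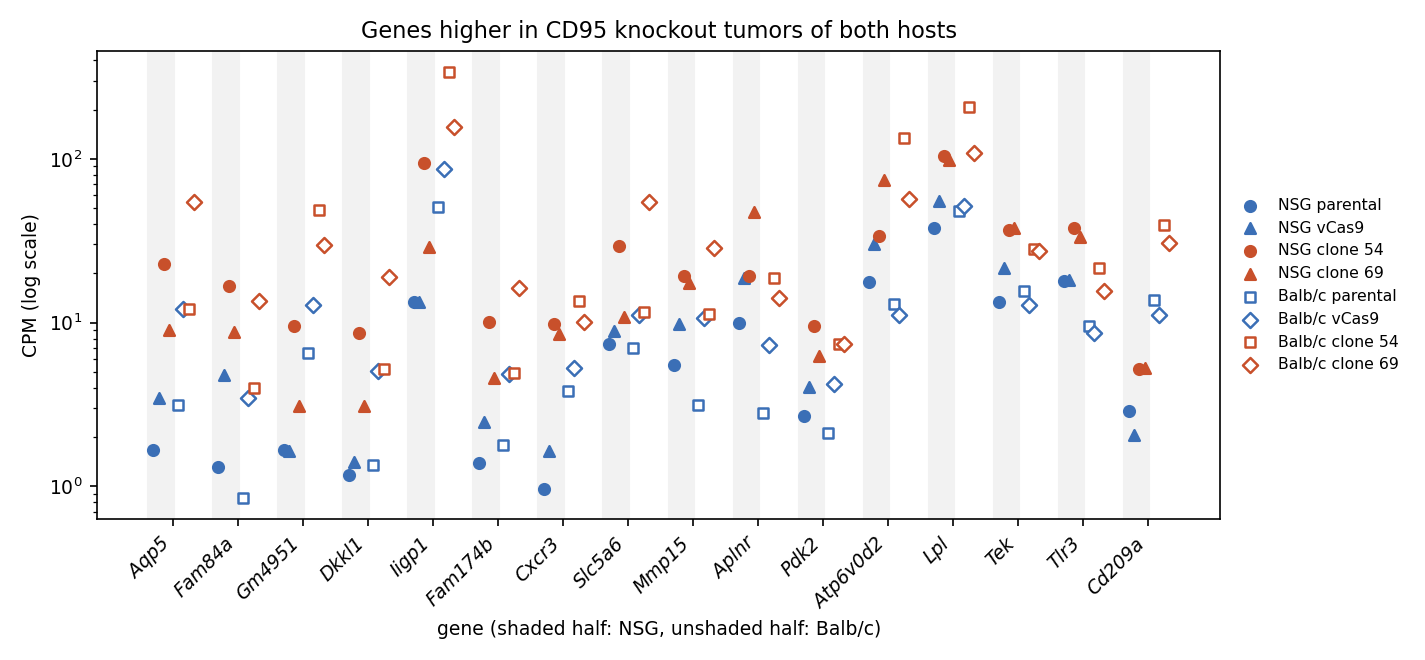
CPM on a log axis for 16 genes higher in the knockout tumors of both hosts, 8 points per gene, 1 for each library, with the same symbols for line and host throughout. The red knockout symbols lie above the blue wild-type symbols of the same host, by a small margin in Balb/c for Aqp5, Dkkl1, Fam174b, Slc5a6 and Mmp15 and by a wide one for Lpl and Cd209a.

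Lpl, the gene of lipoprotein lipase, which adipocytes and macrophages make, was at 37.9 and 55.1 CPM against 105 and 98.3 CPM in NSG and at 48.2 and 51.3 CPM against 208 and 108 CPM in Balb/c. The knockout tumors were above both wild-type tumors in each host, with a log2 fold change of 1.40 (SE 0.24, adjusted p 0.176 in edgeR). Of 10 adipocyte genes tested, Lpl and Lep were higher in both hosts and 0 were lower, beside 7.77% and 8.85% of all tested genes. The sum of the 10 genes was 167 to 245 CPM against 262 to 303 CPM in NSG and 95.5 to 150 CPM against 394 to 420 CPM in Balb/c. That sum includes Lpl itself, at 208 and 108 CPM in the Balb/c knockouts. A log2 fold change above 0 was found for 8 of the 10 genes in NSG (median 1.21) and for 6 in Balb/c (median 0.43). Lep was under 1 CPM in all 8 libraries, and its Balb/c separation rested on 1 count in each knockout tumor against 0 in wild type, which is under the floor of 3 counts. Atp6v0d2, a proton pump subunit of osteoclasts and macrophages, was at 17.6 and 30.1 CPM against 33.6 and 74.6 CPM in NSG and at 13.1 and 11.2 CPM against 133 and 57.1 CPM in Balb/c. The macrophage sum went in opposite directions, from 8890 to 9850 CPM against 6218 to 6325 CPM in NSG and from 6078 to 6363 CPM against 10699 to 23078 CPM in Balb/c. Of 17 macrophage genes, Ccr2, the receptor of inflammatory monocytes, was higher in both hosts, a share below the 7.77% of all tested genes.

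Tek, the angiopoietin receptor of endothelial cells, was at 13.4 and 21.5 CPM against 36.7 and 37.99 CPM in NSG and at 15.5 and 12.8 CPM against 28.1 and 27.3 CPM in Balb/c. Its groups did not overlap, and the log2 fold change was 1.03 (SE 0.17, adjusted p 0.176 in edgeR). Of 12 endothelial genes, Tek and the tight junction gene Cldn5 were higher in both hosts and 0 were lower, beside 7.77% and 8.85% of all tested genes. The endothelial sum overlapped in NSG, with 403 to 632 CPM in wild type and 455 to 815 CPM in knockout, and did not in Balb/c, with 234 to 361 CPM and 658 to 823 CPM. Aplnr, the apelin receptor gene, was at 9.97 and 18.6 CPM against 19.3 and 47.4 CPM in NSG and at 2.80 and 7.35 CPM against 18.8 and 14.1 CPM in Balb/c. The NSG groups of Aplnr were close at 18.6 and 19.3 CPM.

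Of 13 eosinophil and mast cell genes tested, Siglecf and the mast cell protease genes Mcpt1 and Mcpt4 were higher in both hosts, beside 7.77% of all tested genes, and 0 were lower, with a median log2 fold change of 0.92. Mcpt1 was at 4.57 and 7.54 CPM against 11.4 and 14.02 CPM in NSG and at 4.08 and 3.67 CPM against 5.98 and 9.77 CPM in Balb/c. Siglecf, which eosinophils carry, was at 3.12 and 7.87 CPM against 29.5 and 23.4 CPM in NSG and at 89.9 and 115 CPM against 118 and 208 CPM in Balb/c. The eosinophil peroxidase gene Epx was at 0 in all NSG tumors. Of 10 dendritic cell genes tested, Cd209a was higher and Ccr7 was lower in both hosts, and 1 of the 10 had a log2 fold change above 0 in NSG, where the median was -0.48, and 7 in Balb/c, where it was 0.32. Cd209a, a lectin of dendritic cells and monocytes, was at 2.91 and 2.07 CPM against 5.24 and 5.27 CPM in NSG and at 13.8 and 11.1 CPM against 39.7 and 30.6 CPM in Balb/c (log2 fold change 1.31, SE 0.20, adjusted p 0.164 in edgeR). Ciita, the master regulator of MHC class II genes, overlaps Dexi and was the 1 of 7 MHC class II genes that was higher in both hosts. Of the 7 genes, 1 had a log2 fold change above 0 in NSG (median -0.33) and 7 in Balb/c (median 1.68).

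For the remaining cell type lists the same shares of all tested genes, 7.77% higher and 8.85% lower, apply. Of the 14 fibroblast, 12 skeletal muscle, 8 Schwann cell, 7 erythroid and 11 NK cell genes tested, 0 were higher and 0 were lower in both hosts. Of 10 B cell genes, Cd79a was lower, at 0.416 CPM or less in all NSG tumors. Fibroblast genes went in opposite directions, with a median log2 fold change of 0.53 in NSG and -0.23 in Balb/c. Over all 30 lists, 421 genes were tested, of which 20 were higher and 44 were lower in both hosts, beside 7.77% and 8.85% of all tested genes.

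The knockout clones contributed unequally to the shared genes. Among the 1355 lower genes, clone 54 lay further from the wild-type tumors than clone 69 in 558 genes in NSG and in 1092 genes in Balb/c. Among the 1189 higher genes the counts were 593 in NSG and 847 in Balb/c. Clone 54 was thus further from wild type for most shared genes of either direction in Balb/c. In NSG clone 69 was further for most of the lower genes, and the higher genes were split nearly evenly. The clone difference of the 2544 shared genes had a correlation of -0.34 between the hosts. In an edgeR fit with a term for each line, clone 54 against clone 69 gave 0 genes at an adjusted p under 0.05 and 162 at an unadjusted p under 0.05, and limma-voom gave 0 and 211. Clone 54 against the wild-type lines gave 0 and 1425 genes, and clone 69 against them 0 and 867.

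**Figure D5:**
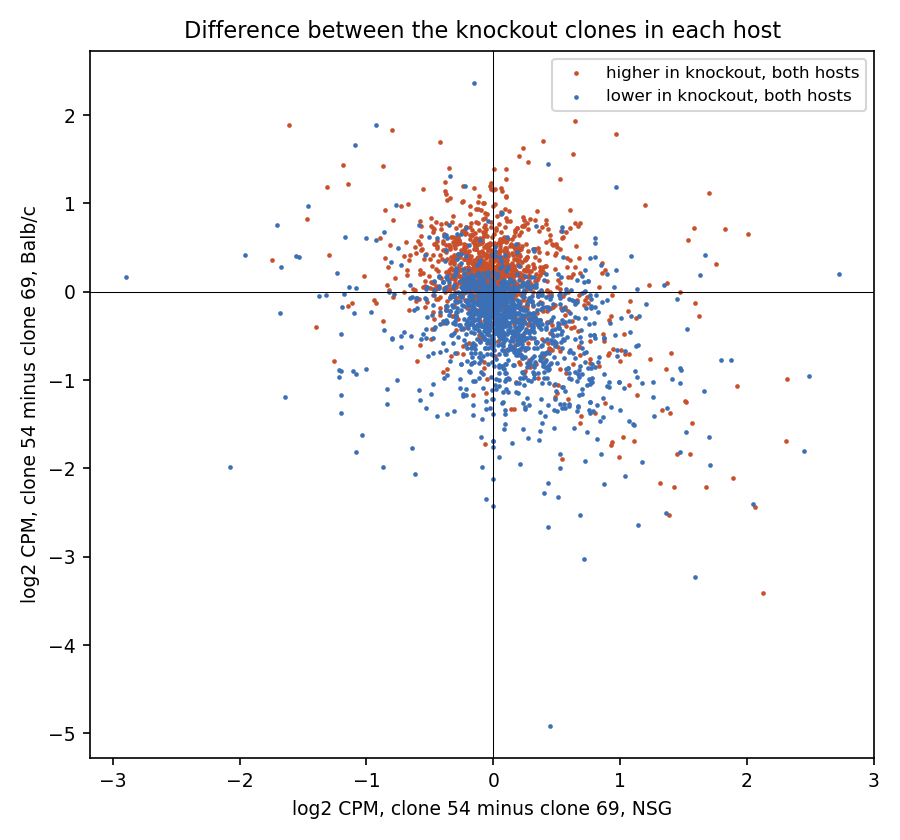
Difference in log2 CPM between clone 54 and clone 69 in NSG (x axis) and in Balb/c (y axis) for the 2544 genes shared between the hosts, red where higher and blue where lower in the knockouts. The cloud tilts from upper left to lower right, with a correlation of -0.34, and most blue points lie below 0 in Balb/c, where clone 54 was the lower of the pair in 1092 of 1355 genes.

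Median log2 fold changes of all tested genes over both hosts ran from -0.05 on chromosome 1 to 0.15 on chromosome 18 over 15299 genes on 20 chromosomes. The share of genes lower in both hosts was greatest on chromosome 1, at 11.8%, and smallest on chromosome X, at 4.91%. For higher genes it ran the opposite way, from 4.07% on chromosome 1 to 12.1% on chromosome X, and the differences between chromosomes were not tested. Protein-coding genes made up 97.1% of the shared higher and 94.7% of the shared lower genes, beside 94.8% of all tested genes. Among the lower genes with at least a 2-fold difference in each host, 38.2% also differed between the hosts in wild-type tumors at an edgeR adjusted p under 0.05, against 20.2% of the higher ones and 31.5% of all tested genes. Of the 131 lower genes, 29 were higher and 21 were lower in Balb/c wild type than in NSG wild type. No gene was at or under 3 counts in all 4 libraries of one CD95 status with at least 10 counts in each of the other 4.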

How the data were processed

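RNA sequencing of 8 tumors was deposited by the authors as raw counts per gene, 1 library per file, for 25006 identifiers. The submitters' processing notes name cutadapt 1.13, STAR, HTSeq 0.6.1p1 and DESeq2 and the builds mm10 and hg19. Their settings, the strand setting included, are not given in the sources used here, so values of overlapping genes and near-identical copies are uncertain. Symbols and positions came from GENCODE M21 on GRCm38, and promoter windows from RefSeq on GRCm38.p6. The deposited counts entered edgeR 4.0.16 under R 4.3.3 (TMM, filterByExpr on the 4 groups, estimateDisp, glmQLFit, glmQLFTest). The main model held host and CD95 status as additive terms, with 5 residual degrees of freedom and a common biological coefficient of variation of 0.289. Effects within a host came from a model of 4 group means. P-values were adjusted by Benjamini and Hochberg over 15310 genes, with a threshold of 0.05. Standard errors are the log2 fold change divided by the root of the F statistic. CPM was computed from the counts with TMM-scaled totals. Intervals and floors cover counting error only.

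The labels do not say that libraries of a group are separate animals of 1 line, and replicates here are different lines, so p-values measure the spread between these libraries. Each line enters once per host, and the main test treats its 2 libraries as independent. The line names in the titles pair the libraries across hosts. As a check, deviations of same-named libraries correlated at -0.42 for the clones and 0.11 for the wild-type lines. The libraries of a group differed by more than sampling noise, with chi-square values per degree of freedom from 19.4 to 122.

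Genes were named by rule: Fas and Fasl, up to 12 shared genes per direction averaging at least 5 CPM in the higher group of each host, ranked by the smaller within-host difference, up to 5 per direction by p-value, and up to 4 shared members per list and direction or else its first tested member. Other list members named were chosen after their values were seen. The members and lists were chosen with earlier results of these data known. Alternatives were other scalings, no filter on low counts, Mir6236 left out, each library or line left out, DESeq2 1.42.0, limma-voom (limma 3.58.1) with and without the line as a block, 4 group means and counts summed per line. The procedure was tested on simulated data. Some genes that this rule names are not reported here.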

Additional observations from a re-analysis of the deposited data

How the results depend on the processing

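The number of genes past the threshold for the knockout effect over both hosts was 0 in the main fit, under both other scalings, without Mir6236, with limma-voom and with the mean of the within-host effects. It was 14 with no filter on low counts, all of them lower, 700 with DESeq2, 11 with counts summed per line, and 1381 with the line as replicate block. Leaving out 1 library or line gave 0 to 2, the 2 being Clca1 and Ccr7 without Balb/c vCas9. Crossing the clones in the block, chosen after seeing the data, gave 0 calls. Without the filter the lower genes with at least a 2-fold difference numbered 216. With 1 library or line left out, the shared genes ranged from 1407 to 2423 (higher) and from 1681 to 2918 (lower), those past 2-fold from 106 to 479 and from 119 to 259, the shared NF-kB members from 6 to 12 and the shared cytokine members from 7 to 11. Of 91 named genes, 86 kept their sign under every alternative run. The sign changed for Col1a1 (-0.28 to 0.46), Hba-a1 (-0.34 to 0.55), Acta1 (-0.83 to 2.78) and Ankrd37 (-0.00251 to 0.53) with a library or line left out. It also changed for Col1a1 and Hba-a1 under limma-voom (-0.15 and -0.30), with the line as block (-0.11 and -0.26) and with the crossed block (-0.14 and -0.29), and for Fasl, at -0.50, with the mean of the within-host effects. The cause of these reversals was not tested. DESeq2 called 62 of the 91 named genes and the block 68, beside 700 and 1381 of all 15310 tested genes. The genes were named by rules applied to these same libraries, so these 2 counts are no independent check. Among the 11 genes called with counts summed per line, only Il11 and Procr were named genes. Depth limits the genes at or under 3 counts, and 2 libraries per group limit every test.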
